A study of Mus musculus with 4 samples.

Results

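The RAD21 sites of embryoid bodies (EBs) at day 12 were the 10781 autosomal sites of the list deposited for EBs, each with its peak interval and summit. The full EB list held 11022 sites, and the lists of the whole series held 26333. A site was taken as a member when its summit lay on one of the 19 autosomes. The reads of the EB RAD21 library were set only against the reads of the EB IgG library. The study used ChIP-seq, in which DNA bound by a precipitated protein is sequenced, on the mouse embryonic stem cell (ESC) line R1/E and on EBs derived from it. There were 4 libraries in the series, of which 2 were used here.

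Both EB libraries came from R1/E-derived EBs that carried an extra Rad21 gene within a BAC, a long cloned piece of mouse DNA. The gene was fused at its 3′ end to a tag that contains GFP, and was present in addition to the untagged gene of the cells. EBs are aggregates in which ESCs differentiate, here grown in hanging drops for 12 days, so every value is an average over a mixture of cell types. Sites held by few of the cells cannot be told apart from weak sites. The RAD21 library was precipitated with a goat antibody against eGFP. The control was labelled as a goat IgG isotype precipitation of the same tagged EBs and was described as input DNA, and it is called the IgG library here. ChIP-seq measures no expression, so the cell types could not be checked against their markers. The methods do not say whether the cells came from 1 clone. The 100 kb around Rad21 held 1575 RAD21 and 1512 IgG reads, 4.96 and 5.11 times the median of 100 kb windows of that chromosome and thus raised to a similar degree in both libraries. The RAD21 library held 7740389 autosomal reads and the IgG library 6929293. There was 1 library a side, hence no replicates and no test. The intervals below are 95% intervals, exact for counts, and cover counting error only.

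RAD21 is the subunit that closes the ring of the cohesin complex. Cohesin holds sister chromatids together until cells divide, and in interphase it shapes chromatin loops. It accumulates where the zinc finger protein CTCF is bound to its directional DNA motif, and loops often join motifs that face each other. A smaller part of cohesin is found at promoters and enhancers of active genes, which differ between the germ layers that EBs produce.

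The sequences of a few sites are shown because the direction of the CTCF core pattern around neighbouring sites is described below. They are printed on the plus strand of mm9, 5′ to 3′. The capitals mark the 12 letters that match the CTCF core consensus. A match on the minus strand is printed as its reverse complement. The first pair lies upstream of Wnt3, a signalling ligand of the primitive streak, at chr11:103620160-103620272 and chr11:103625236-103625308, between genes. Its summits were 5.12 kb apart and the matches read away from each other. The second pair lies in introns of the calcium channel gene Cacna1c, at chr6:118576455-118576562 and chr6:119054466-119054505, with 478 kb between the summits and the matches facing each other. Krt8 (chr15:101814880-101814965), Ncam1 (chr9:49302215-49302276), Myh3 (chr11:66923895-66924005) and Col1a1 (chr11:94798430-94798511) each had 1 printed match. The first 3 of these lie between genes and the last in an intron. The strongest site near Snai2, at chr16:14701649-14701729 between genes, held no match within 100 bp of its summit and is given without capitals. Near the left end of its printed sequence, a stretch differs from the consensus in only 1 letter. The missing match therefore does not show a site free of CTCF.
Wnt3 distal site: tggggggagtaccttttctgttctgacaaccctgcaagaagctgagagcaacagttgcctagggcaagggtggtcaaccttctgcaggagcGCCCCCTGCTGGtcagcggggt
Wnt3 proximal site: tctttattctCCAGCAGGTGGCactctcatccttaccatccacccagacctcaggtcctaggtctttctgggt
Cacna1c first site: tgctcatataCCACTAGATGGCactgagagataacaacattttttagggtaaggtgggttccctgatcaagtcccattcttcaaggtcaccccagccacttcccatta
Cacna1c second site: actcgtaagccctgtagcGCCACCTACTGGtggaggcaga
Krt8 site: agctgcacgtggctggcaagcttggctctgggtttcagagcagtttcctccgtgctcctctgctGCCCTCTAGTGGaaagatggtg
Ncam1 site: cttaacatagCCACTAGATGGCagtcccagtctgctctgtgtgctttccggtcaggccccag
Myh3 site: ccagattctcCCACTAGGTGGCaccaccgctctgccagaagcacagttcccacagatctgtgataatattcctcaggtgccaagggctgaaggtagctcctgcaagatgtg
Col1a1 site: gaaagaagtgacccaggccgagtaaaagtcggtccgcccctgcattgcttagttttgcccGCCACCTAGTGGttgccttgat
Snai2 site: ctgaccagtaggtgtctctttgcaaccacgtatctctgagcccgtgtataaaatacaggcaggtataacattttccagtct

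Around the summits the RAD21 library stood well above the IgG library. Sites had been called for this excess, so its size describes the list and supports nothing. The median site held 18 RAD21 reads within 250 bp of the summit, with 90% of sites between 11 and 38 and a highest count of 85. The median of IgG reads was 2 and the highest count 11. No site had as many IgG as RAD21 reads, and 1651 sites (15.3%) had no IgG read at all. The median ratio after scaling to autosomal reads was 6.27, with 1 read added to each count. The peak intervals covered 8463363 bp and took 3.42% of the RAD21 reads against 0.467% of the IgG reads, a ratio of 7.34 (7.26 to 7.42). In 50 bp steps the mean RAD21 level was 9.93 RPM per kb (RPM, reads per 1000000 autosomal reads) just beside the summit, and 0.572 at nearly 3 kb. The IgG level was 0.595 and 0.412 at the same places.

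**Figure D1:**
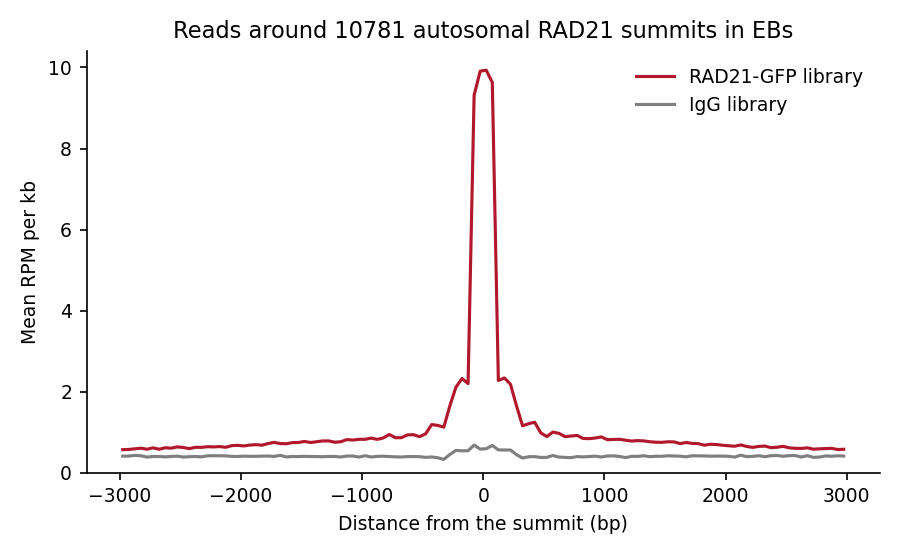
Mean RPM per kb (y axis) by distance from the summit in bp (x axis) at the 10781 autosomal EB sites, for the RAD21-GFP library (red) and the IgG library (grey). The RAD21 level near 9.93 is held within 100 bp of the summit, the position with the most overlapping extended reads. The part of this placement, and of the 100 bp by which reads were moved, in the steep edges was not tested.

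The 10781 sites amounted to 4.50 per Mb, with unequal spacing. The median distance between neighbouring summits was 113.5 kb (109.7 to 117), and the middle 50% lay between 38.5 and 255 kb. The mean was 223 kb. At the short end, 1163 of 10762 neighbouring pairs (10.8%, 10.2 to 11.4) were within 10 kb and 99 within 1 kb. At the long end, 348 stretches of over 1000 kb between neighbours (3.23%) made up 622 Mb, or 25.9% of the chromosome length spanned by summits.

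The 3 longest stretches without a site were 2 on chromosome 7 and 1 on chromosome 6. The longest, chr7:38986167-46972026, spanned 7.99 Mb, of which only 0.986 Mb is known sequence in mm9, so the distance says little. The next, chr7:7248444-13631605, spanned 6.38 Mb with 79 protein-coding starts, of which 46 were olfactory or vomeronasal receptor genes, large families that are expressed in sensory neurons. Read density there was 946 RAD21 and 1032 IgG reads per Mb against 3234 and 2895 over all autosomes. Both libraries had few reads there, and the part of this in the missing sites was not tested. The stretch chr6:73104006-78282480 of 5.18 Mb held 7 starts, with 1530 RAD21 and 1581 IgG reads per Mb.

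Clusters of sites were few. With at least 3 summits each within 10 kb of the next, there were 115 clusters, of which 101 had 3 summits, 12 had 4 and 2 had 5. They held 361 sites (3.35%, 3.02 to 3.71), while 3026 sites (28.1%) had no neighbour within 100 kb. Clustered and lone sites had the same median ratio of 6.27, and their median scores, the deposited 10 times negative log10 of the p-value, were 91.6 and 96.3.

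Of the 5 largest clusters, 4 lay at or beside a protein-coding gene and 1 between genes. At Ndfip2, an adaptor of ubiquitin ligases, 5 summits spread over 18.8 kb from within the gene to just past it (chr14:105694518-105713326). Their RAD21 counts were 13, 17, 18, 17 and 23, against IgG counts of 3, 0, 4, 1 and 2. None of the 5 held the CTCF core pattern. The other cluster of 5 lay between genes (chr17:73646471-73655047, 8.58 kb), with RAD21 counts of 12, 16, 20, 13 and 22 and IgG counts of 0, 2, 1, 1 and 0. Around Cited2, a transcriptional co-regulator needed for heart development, 4 sites held 25, 13, 30 and 48 RAD21 reads and 1, 1, 4 and 7 IgG reads. At Plk2, a polo-like kinase, 4 sites held 21, 40, 29 and 13 RAD21 reads and 3, 4, 2 and 2 IgG reads. At Bcl6, a transcriptional repressor, the counts were 28, 20, 25 and 30 against 2, 1, 2 and 3. Apart from the Ndfip2 cluster, each of these clusters, including the one between genes, had 1 site with the core pattern. In all 5 clusters every site was higher in RAD21 than in IgG, as the calling required.

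The core consensus of CTCF lay within 100 bp of 2317 EB summits (21.5%, 20.7 to 22.3). The pattern was searched by its 12 letters with their alternatives on both strands. It was found in 194 of 235116 windows of the same length placed every 10 kb away from sites (0.0825%, 0.0713 to 0.0950). The share was 14.5% in sites with a score of 50 to 70 and 27.7% in those of 250 or more. It was 18.0% (14.2 to 22.4) in clustered sites and 22.3% (20.8 to 23.8) in sites with no neighbour within 100 kb, so these intervals overlapped. A missing match says only that these letters are not in the window.

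The direction of the pattern varied with the distance between neighbouring sites. This comparison was chosen after the data had been seen. Among the 131 neighbouring pairs within 50 kb in which both sites held a match, 61 (46.6%, 37.8 to 55.5) read away from each other and 14 (10.7%, 5.97 to 17.3) towards each other. Among the 390 pairs farther apart, 108 (27.7%, 23.3 to 32.4) read away and 130 (33.3%, 28.7 to 38.3) towards each other. Pairs reading in the same direction made up 42.7% and 39.0%. For motifs placed without regard to each other, away and towards would be equally frequent. Within 10 kb, 3 of 42 pairs faced each other and 18 read away. Between 50 and 200 kb, 69 of 221 pairs faced each other and 67 read away. The Wnt3 pair printed above is of the first kind, with 10 RAD21 and 2 IgG reads at its distal and 46 and 2 at its proximal site. Over 200 kb, 61 of 169 faced each other and 41 read away. The outer sites of Cacna1c face each other but are not neighbours, since 3 sites without a match lie between them.

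**Figure D2:**
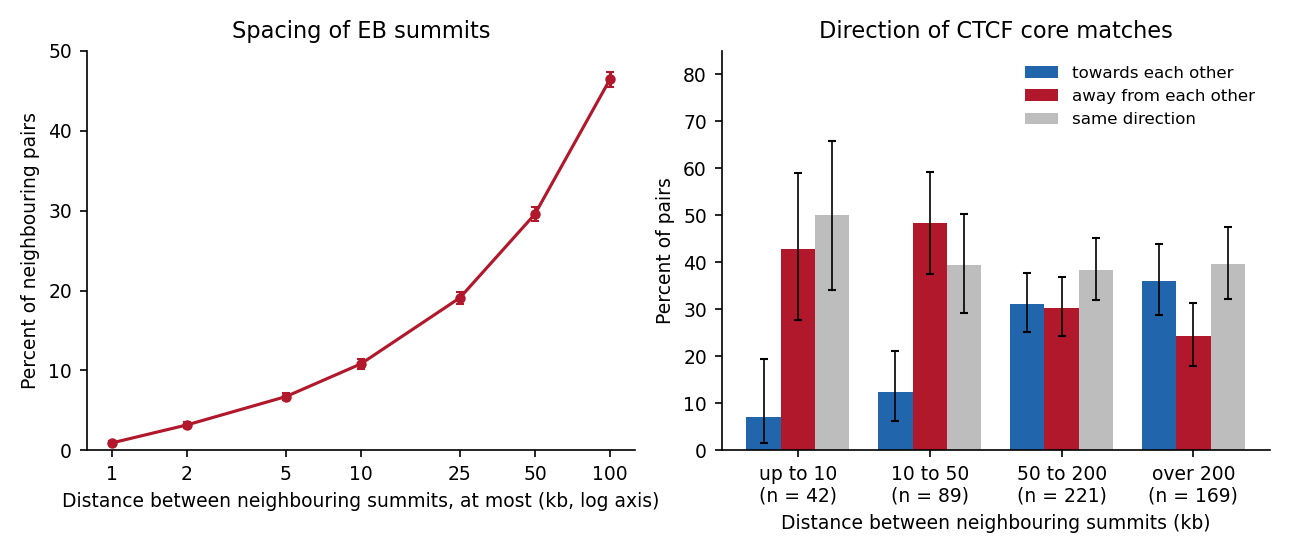
Left, percent of 10762 neighbouring EB summit pairs (y axis) within a given distance in kb (x axis, log scale), rising from 0.920% within 1 kb to 46.4% within 100 kb. Right, percent of neighbouring pairs with a CTCF core match at both sites (y axis) that face each other (blue), read away (red) or read the same way (grey), by distance in kb (x axis, n pairs below), where 10.7% of the pairs within 50 kb face each other and 46.6% read away. Error bars are exact 95% intervals.

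Gene-poor regions held few sites. The genome was divided into 1 Mb bins and these into 5 classes of equal number by their protein-coding starts. From the poorest to the richest class, the EB libraries had 1.46, 3.60, 5.48, 5.79 and 6.21 sites per Mb. The richest class (14 to 79 starts a bin) thus had 4.26 times the site density of the poorest (0 or 1 start), and most of this difference lay between the first 3 classes. Bins without any site made up 36.7% of the poorest class and 4.81% of the richest. Counted per gene the order was the reverse, with 314 sites per 100 starts in the poorest class and 24.8 in the richest. The classes were made by these same starts, 222 against 11936, so this reversal is no separate result.

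Reads outside sites moved the other way, with 3286 RAD21 and 3242 IgG reads per Mb in the poorest class and 2673 and 2343 in the richest. The scaled ratio of RAD21 to IgG outside sites went from 0.939 to 1.06, and the median GC content of the bins from 37.9% to 45.7%. The part of these in the site density was not tested, but bins could be compared within a range of GC. In the bins of lowest GC, those with under 5, 5 to 9 and 10 or more starts had 1.92, 4.43 and 3.09 sites per Mb. In the middle class of GC the values were 4.15, 5.58 and 5.13, and in the highest 3.79, 6.09 and 6.83. Bins with under 5 starts had the fewest sites in each class. From 5 to 9 to 10 or more starts, the density was lower in the lowest and middle classes and higher only in the highest.

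**Figure D3:**
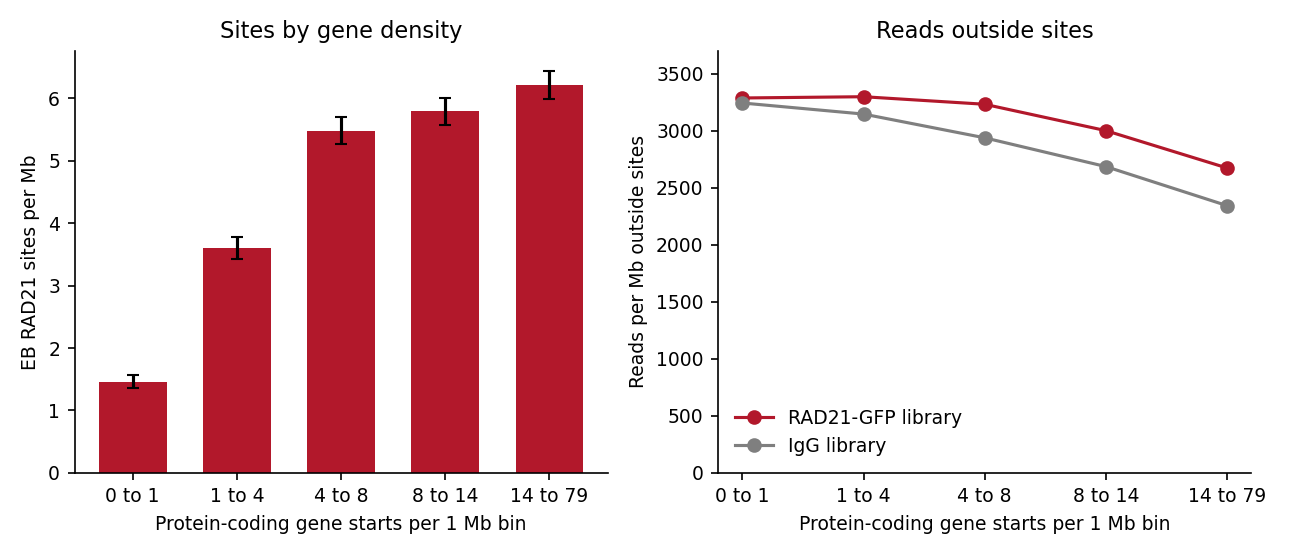
Left, EB RAD21 sites per Mb (y axis, bars with exact Poisson 95% intervals) in 5 classes of 1 Mb bins by their number of protein-coding starts (x axis), rising from 1.46 to 6.21. Right, reads per Mb outside sites (y axis) in the same classes for the RAD21-GFP library (red) and the IgG library (grey), both lower in the gene-rich classes.

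The make-up of sites differed between the classes. The share of sites at promoters was 2.29% in the poorest and 9.10% in the richest class. The classes were made by their starts, 222 against 11936, and promoter sequence was not matched, so this share is no separate result. The share with the CTCF core was 17.5% and 24.2%. The share in clusters was highest in the second class, at 5.19% (4.19 to 6.35), and lowest in the richest, at 1.86% (1.41 to 2.42). Among chromosomes, chromosome 11 stood apart with 7.08 sites per Mb (6.61 to 7.58), followed by chromosome 19 with 5.64. The lowest was chromosome 14 with 3.65 (3.32 to 4.01). Chromosome 7, with 14.6 genes per Mb the most gene-dense, had only 4.07 sites per Mb. The read ratio of the libraries over whole chromosomes ranged from 0.984 to 1.04, highest on chromosome 11.

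The densest bins were named after their values had been seen. On chromosome 11, the bin chr11:94000001-95000000, which contains Col1a1, and the bin chr11:96000001-97000000, which contains the HoxB genes that pattern the body axis, had 18 sites each. Their sites held 10 to 42 RAD21 reads each. Sites were also dense in 1 gene-poor bin, chr13:110000001-111000000, with 16 sites of 11 to 46 RAD21 reads, none at a promoter. Its only protein-coding genes were Rab3c and the end part of Pde4d.

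By place, more sites lay near gene starts than the length of these regions would give. Of the sites, 581 (5.39%, 4.97 to 5.83) lay within 1 kb of a protein-coding start, in 2.36% of the sequence, which is 10.3 sites per Mb of such sequence. Gene ends farther than that from any start had 276 sites (2.56%), or 7.62 per Mb. The rest of genes had 4173 sites (38.7%), or 4.70 per Mb, and the sequence between genes 5751 (53.3%), or 4.07 per Mb. The median distance to the nearest start was 24.7 kb (23.8 to 25.6), against 54.3 kb for positions every 10 kb. Of the sites 83.6% lay within 100 kb of a start, against 62.6% of these positions. Outside genes and over 100 kb from any gene start or end lay 1002 sites (9.29%), a share not computed for positions.

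Promoter sites had lower scores, and a lower share held the CTCF pattern. Their median score was 78.4, against 101 between genes, and 10.7% (8.28 to 13.5) held the core, against 27.5% (22.4 to 33.2) at gene ends and 22.4% (21.3 to 23.5) between genes. Of the promoter summits, 391 of 581 (67.3%, 63.3 to 71.1) lay upstream of the start, with a median position of 188 bp upstream. Reads were recovered unevenly around these starts. Where the first start had a site, the IgG level was 0.339 RPM per kb in the 250 bp before it and 0.192 in the 250 bp after it. The part of this in the summit positions was not tested. At gene ends, 112 of 276 summits (40.6%, 34.7 to 46.6) lay before the end.

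The promoter sites with most RAD21 reads over IgG lay at genes of unlike function. Nuf2, a kinetochore protein, had a site 908 bp upstream with 58 RAD21 and 2 IgG reads. The site of the predicted gene Gm5614 held 56 and 1 reads and was the only one of the 5 with the CTCF core. At Blcap, a small membrane protein, the counts were 55 and 4. They were 45 and 0 at Dhx8, an RNA helicase of the spliceosome, 194 bp upstream of the start. At Zfp54, a zinc finger protein, they were 52 and 7. All 5 summits lay upstream of the start, between 194 and 908 bp away.

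At gene ends, the counts were highest at Gdap1, a mitochondrial protein of neurons, with 61 RAD21 and 6 IgG reads. Slc37a2, a sugar phosphate transporter, had 55 and 1. The end of Fgfr1, a fibroblast growth factor receptor, had 44 and 1. At Gpr61, an orphan receptor, they were 47 and 6, and 722 bp past Eef1b2, a translation elongation factor, 41 and 2. The last 3 held the CTCF core, and the first 2 did not.

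Read levels around all starts showed how much of the promoter signal lay outside the called sites. A site within 1 kb of its first start was found for 475 of 21418 protein-coding genes (2.22% of all genes tested). In the central 500 bp of these starts, the mean level was 1.71 RPM per kb in RAD21 and 0.266 in IgG, a ratio of 6.43 that the calling of sites selected. At the 20936 starts without a site, the central level was 0.354 in RAD21 and 0.246 in IgG, a ratio of 1.43 (1.41 to 1.46). The RAD21 level there was below the 0.387 found 5 to 10 kb upstream, and the IgG level was further below its own 0.361. The central ratio thus came with a dip in both libraries. It was deepest in the 250 bp downstream of the start, at 0.277 in RAD21 and 0.202 in IgG. At 1 to 2 kb downstream, RAD21 was at 0.496 and IgG at 0.392, against 0.389 and 0.370 at 5 to 10 kb. On the upstream side the levels were 0.466 and 0.395, against 0.387 and 0.361. Both libraries were thus higher on either side of starts than farther away, RAD21 by more. Gene ends without a site showed no dip, with a central ratio of 1.06 against 1.10 at 5 to 10 kb inside the gene. Leaving out ends with a site lowers the central value. With these ends kept, the ratios were 1.115 and 1.106.

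**Figure D4:**
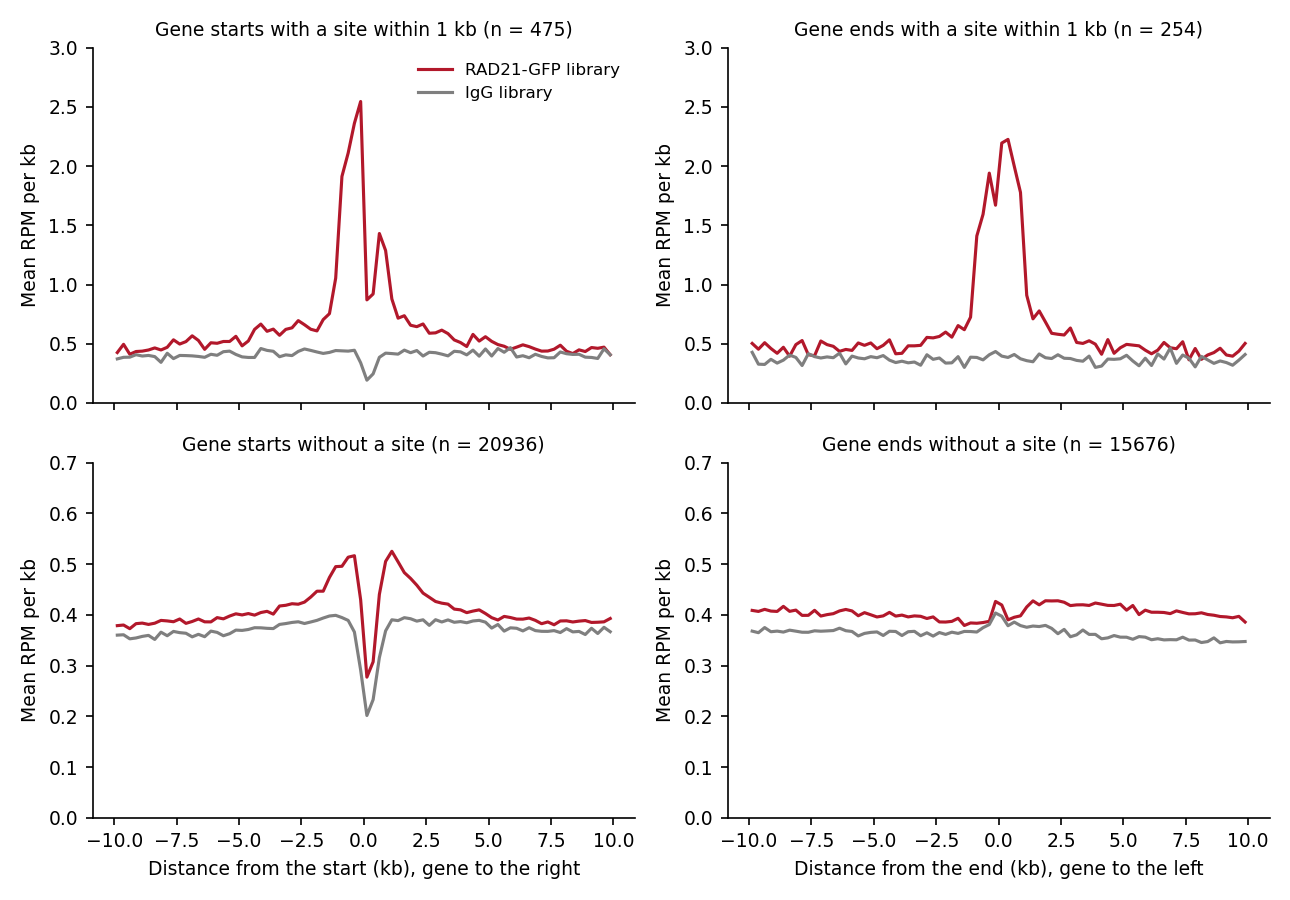
Mean RPM per kb (y axes, on separate scales for the upper and lower plots) in 250 bp steps within 10 kb of protein-coding gene starts (left) and of ends over 2.5 kb from a start (right), for the RAD21-GFP library (red) and the IgG library (grey). Upper plots show starts and ends with an EB site within 1 kb (n = 475 and n = 254), and lower plots those without one (n = 20936 and n = 15676). At starts without a site, both libraries dip and are higher on either side, RAD21 by more.

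For single genes, reads within 1 kb of the first start were compared where both libraries together had at least 5. Of 18362 such promoters, 5087 (27.7%) were at least 2-fold higher in RAD21 and 1177 (6.41%) at least 2-fold higher in IgG, with a median ratio of 1.34. The ratio at promoters without a site rose with their GC content, from 0.956 (0.942 to 0.971) in the lowest GC class to 1.81 (1.78 to 1.85) in the highest. Called sites did not follow GC in this way, being found at 1.32%, 2.89%, 2.74% and 1.92% of promoters from the lowest to the highest class.

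Genes with most sites within their span were mostly very long. Gm20388 had 27 sites, but its annotated span of 4435 kb covers 74 other protein-coding genes. The annotated span of Fgfr2, a fibroblast growth factor receptor, is 3009 kb and covers 32 others, so its 16 sites cannot be given to Fgfr2 alone. Arfip1, with 11 sites in 1391 kb, overlaps 6 others. Pde4d, a cyclic AMP phosphodiesterase, had 13 sites in 1504 kb, with 11 to 46 RAD21 and 0 to 4 IgG reads each. Arhgap26 had 10 sites in 775 kb. The neuronal scaffold gene Dlg2 had 8, the cyclic GMP dependent kinase gene Prkg1 and the dynamin gene Dnm3 each had 7, and Macrod2 had 9. Diap1, an actin-nucleating formin, stood apart with 7 sites in only 91.9 kb, or 7.62 per 100 kb against 0.411 to 1.41 in the other 9 genes. Its sites held 13 to 63 RAD21 and 0 to 7 IgG reads.

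Lineage genes were examined with 7 lists, from cardiac to pluripotency genes, of which 217 of 224 members lie on autosomes in the annotation. A gene had a site when a summit lay in its span or 20 kb either side. This held for 103 of the 217 (47.5%, 40.7 to 54.3), against 8249 of 21418 protein-coding genes (38.5%). Long genes more often have a site (23.7% in the shortest and 54.8% in the longest length class). Sites per 100 kb are therefore given too, which were 0.644 over all genes. This rate varied with length as well, at 0.677, 0.825 and 0.571 from the shortest to the longest class. The lists were not matched for length. Neighbouring genes can share a site.

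Of the cardiac genes, 23 of 34 (67.6%, 49.5 to 82.6) had a site, with 0.908 sites per 100 kb (0.646 to 1.24). Their median length was 26.5 kb against 15.5 kb over all genes. Cacna1c, the L-type calcium channel of heart muscle, had 5 intronic sites. They held 14, 19, 12, 12 and 19 RAD21 reads and 0, 2, 0, 1 and 0 IgG reads, at most 1 read above the median site. Mef2c, a transcription factor of the early heart, had 16 and 4 reads at its first site, and 38 and 5 and 42 and 3 at a pair deep within the gene. Gja1, the gap junction protein connexin 43, had 13 and 3, 44 and 3, and 13 and 0 reads at 3 sites, the last of them 49 bp past its start. The 11 genes without a site included the muscle methyltransferase Smyd1, the transcription factor Tbx5 and the troponin Tnni1, with 1, 0 and 6 RAD21 reads at their promoters. Of 28 promoters tested, 10 (35.7%) were at least 2-fold higher in RAD21 and 4 (14.3%) in IgG, against 27.7% and 6.41% over all genes.

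Of the blood and endothelial genes, 17 of 32 (53.1%, 34.7 to 70.9) had a site, with 0.951 per 100 kb (0.637 to 1.37). Pecam1, an adhesion molecule of endothelial cells, had 3 sites with 18, 12 and 26 RAD21 and 3, 0 and 0 IgG reads. Vwf, the blood clotting factor of the vessel wall, had 18, 14 and 19 against 1, 0 and 2. Sfpi1, which encodes the myeloid transcription factor PU.1, had 14, 19 and 14 against 2, 3 and 0. Except for the first site of Pecam1, none of these held the core pattern. Kit, Kdr and Flt4, receptors of blood and vessel progenitors, had no site within spans of 43.5 to 81.8 kb. Promoter reads were at least 2-fold higher in RAD21 at 5 of 25 promoters (20.0%, against 27.7% over all genes) and in IgG at 0 of 25 (against 6.41%).

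Of the endoderm and liver genes, 15 of 34 (44.1%, 27.2 to 62.1) had a site, with 1.10 per 100 kb (0.705 to 1.64). Gata6, a transcription factor of primitive endoderm, had 4 sites of 13, 14, 13 and 10 RAD21 and 4, 2, 3 and 2 IgG reads. The first of these lies 1078 bp before its start in the neighbouring transcript 1010001N08Rik. Sparc, a matrix glycoprotein made by parietal endoderm, had 29, 31 and 13 against 1, 8 and 3. Krt8, a keratin of simple epithelia, had 31 and 0 reads at the site printed above and 25 and 1 at another, both downstream of the gene. Lama1, Hnf4a and Lamb1 were among those without a site. Promoter reads were at least 2-fold higher in RAD21 at 13 of 30 promoters (43.3%, against 27.7% over all genes) and in IgG at 3 (10%, against 6.41%).

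Of the streak and mesoderm genes, 15 of 33 (45.5%, 28.1 to 63.7) had a site, with 1.26 per 100 kb (0.799 to 1.89). This rested on the flanks, since without them 9.09% had a site against 15.5% of all genes. Pdgfra, a receptor of mesenchymal cells, had 11, 25, 17 and 14 RAD21 reads at its 4 sites and 0, 4, 1 and 0 IgG reads. Snai2, a repressor that acts when epithelial cells become migratory, had 62, 19 and 11 against 2, 0 and 2. The first of these sites, printed above, lies 4256 bp upstream and had a ratio of 27.8 (7.37 to 234). Pax2 and Meox2 had no site. Promoter reads were at least 2-fold higher in RAD21 at 12 of 26 promoters (46.2%, against 27.7% over all genes) and in IgG at 2 (7.69%, against 6.41%).

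Of the muscle and connective tissue genes, 13 of 24 (54.2%, 32.8 to 74.5) had a site, with 1.22 per 100 kb (0.774 to 1.83). Col1a1 and Col1a2 encode the chains of type I collagen. Col1a1 had 40 and 3 reads at an intronic site 907 bp past its start, printed above, then 11 and 4, and 13 and 1 in the neighbouring gene Sgca. Col1a2 had 15, 22, 11 and 16 RAD21 reads against 2, 2, 2 and 3. Myh3, the embryonic muscle myosin, had 20, 23 and 25 against 1, 3 and 1. Eya1, Prrx1 and Col2a1 had no site. At 13 of 21 promoters (61.9%) RAD21 was at least 2-fold higher than IgG, against 27.7% over all genes, and at 2 (9.52%, against 6.41%) it was at least 2-fold lower. These 13 included Col1a1 with 50 RAD21 and 5 IgG reads, Fn1, which encodes fibronectin, with 19 and 2, and Eya1 with 28 and 8. The GC content that moves with this ratio was not matched, and its part here was not tested.

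Neural and pluripotency genes had shares below the 38.5% of all genes, but both intervals included this value. These lists also held shorter genes, with median lengths of 6.67 and 9.25 kb against 15.5 kb over all genes. The neural median lay in the shortest length class, where 23.7% of genes had a site, below the share of the list. The pluripotency median lay in the middle class, whose share was above that of the list. The part of gene length in these shares was not tested. Of the neural genes, 12 of 35 (34.3%, 19.1 to 52.2) had a site, with 0.627 per 100 kb (0.351 to 1.03). More than 1 site was found at 2 of these genes (5.71% of the list, against 11.7% of all genes). Ncam1, an adhesion molecule of neurons, had 14, 38 and 13 RAD21 reads against 0, 2 and 2. The strongest lies downstream of the gene and is printed above. Nes, the intermediate filament of neural progenitors, had 15 and 26 against 1 and 1, and the patterning gene En1 had 37 against 3. Mtap2, Pax7 and Pax3 had no site. Of 25 promoters, 6 (24.0%, against 27.7% over all genes) were at least 2-fold higher in RAD21 and 0 (against 6.41%) in IgG.

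Of the pluripotency genes, 8 of 25 (32.0%, 14.9 to 53.5) had a site, with 0.563 per 100 kb (0.258 to 1.07). Stat3, which relays the LIF signal in ESCs, had 28 and 12 RAD21 reads against 2 and 1. Fbxo15 had 29 against 5 and Tbx3 had 19 against 1. Esrrb, Nr5a2 and Tcfcp2l1, transcription factors of ESCs, had none, with a span of 161 kb for Esrrb. Of 19 promoters, 7 (36.8%, against 27.7% over all genes) were at least 2-fold higher in RAD21 and 0 (against 6.41%) in IgG.

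The order of the lists depended on the window and on the score. The interval of the share with a site lay wholly above 38.5% for the cardiac genes only. For sites per 100 kb, several intervals lay wholly above the 0.644 of all genes. These were the cardiac, endoderm and liver, streak and mesoderm, and muscle and connective lists, the cardiac one by the least. The lower end of each was still below the 0.825 of the middle length class. Without flanks the shares were 35.3% for cardiac, 31.2% for blood and endothelial, 17.6% for endoderm and liver, 5.71% for neural, 9.09% for streak and mesoderm, 37.5% for muscle and connective and 4% for pluripotency genes, against 15.5% of all genes. At a score of at least 100, the cardiac share was 35.3% and the muscle and connective share 37.5%, against 21.2% of all genes. The cardiac list was thus not the highest under either of these. At that score most of the genes named for their sites in each list also had fewer sites. Cacna1c went from 5 to 2, Gata6 from 4 to 1 and Vwf from 3 to 1. Only Krt8, En1, Myh3, Fbxo15 and Tbx3 kept all of theirs. Differences between lists were not tested. A site within 1 kb of the first start was found at 2.22% of all genes. It was found at none of the blood and endothelial or pluripotency genes. In the other lists the shares ran from 2.94% to 9.09%, the latter for streak and mesoderm genes (1.92 to 24.3), and every interval included 2.22%. The genes with such a site were Gja1, Cxcr4, Gfap, Sox11, Pdgfra, Snai2, Osr1 and Col1a1. At Pdgfra it held 11 RAD21 and 0 IgG reads, and at Snai2 it held 19 and 0.

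**Figure D5:**
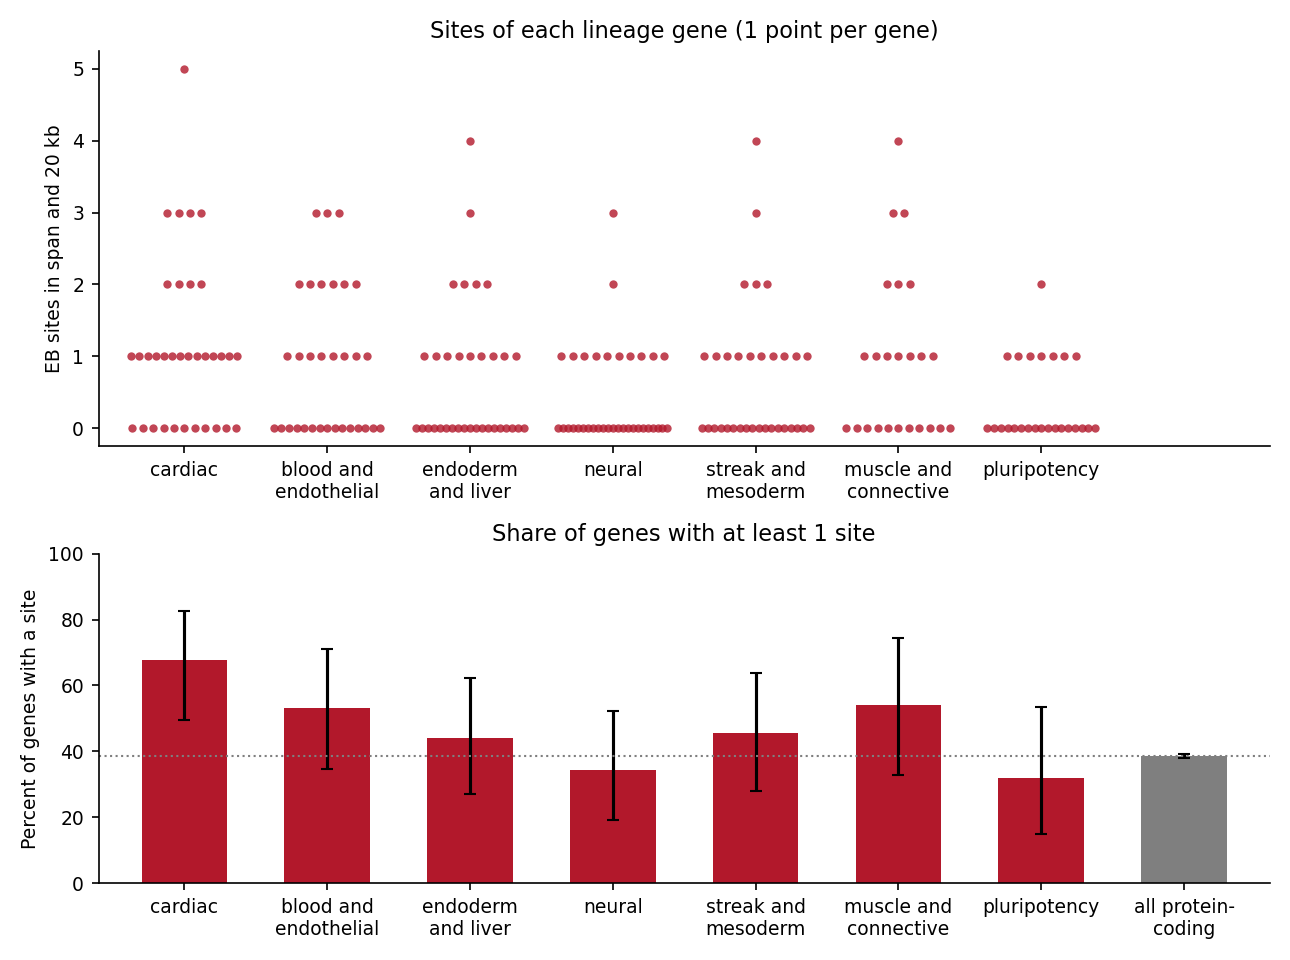
Upper plot, EB sites in the span and 20 kb either side (y axis) for each lineage gene (1 point per gene) in the 7 lists (x axis), from 0 to the 5 of Cacna1c. Lower plot, percent of genes with at least 1 site (y axis, bars with exact 95% intervals) in each list and over all 21418 protein-coding genes (grey bar and dotted line at 38.5%), where the cardiac list was at 67.6% and the pluripotency list at 32.0%.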

How the data were processed

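ChIP-seq reads of 35 bases from the EB RAD21 and EB IgG libraries were analysed. The authors aligned reads to mm9 (the aligner is not given in the sources used here) and deposited read positions, used here as counts. No read shared its position and strand with another, so repeated reads do not enter. The IgG file ends within a line on chromosome X, so autosomes alone were compared. The authors called peaks with MACS against the IgG library of the same cells and deposited a score (10 times negative log10 p, lowest 50.01; the methods also give a wider limit) for each peak. The authors also deposited a signal for each summit, its pile-up height, not scaled between libraries. ESC files entered only through their number of sites.

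Reads were moved by 100 bp to the fragment centre, counted within 250 bp of summits and scaled to autosomal reads. Ratios had 1 read added, promoters a minimum of 5 reads. Genes and sequences came from GENCODE and the genome of the same build (NCBI m37). Intervals were Clopper-Pearson, exact Poisson or conditional binomial, and order-statistic intervals for medians. Counting was tested on simulated data. Python 3.11.15, numpy 2.4.6, scipy 1.17.1 and matplotlib 3.10.9 were used.

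The lists and sites were chosen with earlier results of these data known. Of 224 listed genes, 5 lie on chromosome X and 2 were not found by symbol. Named were the 3 genes with most sites per list, up to 3 longest genes without a site, the 10 genes with most sites in their span, the 5 largest clusters, the 3 longest stretches, and the 5 promoters and 5 gene ends with most RAD21 less IgG reads. Alternatives concerned windows, distances, scaling, pseudocount, minimum, score and annotation. Genes named beyond these as examples of promoter reads or promoter sites, and the densest bins, were chosen after their values were seen.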

Additional observations from a re-analysis of the deposited data

Results flagged for a closer look

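Sites on chromosome X were outside the comparison because the EB IgG file ends there. The 102 EB sites on X before the last IgG read held 1702 RAD21 and 140 IgG reads within 250 bp of the summits, a ratio of 10.88 (9.16 to 13.0) after scaling to autosomal reads, while all reads of that stretch gave 0.954. The summed ratio at autosomal sites was 8.89, and the median site ratio was 6.64 on X and 6.27 on autosomes. The ratio stood out as a signal in data that the autosomal comparison did not use. The sites had been called for this excess.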

How the results depend on the processing

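The median site ratio of 6.27 became 7.16 within 150 bp, 5.19 within 500 bp, 7.46 with 0.5 read added, 6.49 when scaled to reads outside sites and 8.06 at a score of at least 100. The median spacing of 113.5 kb became 240.9 kb at that score and 119.1 kb with 1 summit kept within 2 kb. The share of clustered sites (3.35%) was 1.68% with 5 kb, 8.76% with 25 kb, 20.4% with at least 2 summits and 0.647% at that score. The gene-rich to gene-poor fold of 4.26 was 3.64 with all annotated genes, 3.38 by bases in genes and 3.88 at that score. Sites at promoters (5.39%) were 2.92% within 500 bp, 11.2% within 2500 bp, 4.17% with first starts only and 3.80% at that score, and sites at gene ends (2.56%) 1.37% and 5.73% for the first 2 of these. Promoters 2-fold higher in RAD21 (27.7%) were 29.2% with 0.5 read, 25.6% with no minimum, 28.9% with at least 10 reads and 29.3% when scaled outside sites, and 11.2% were 3-fold higher. Lineage genes with a site (47.5%) were 19.8% without flanks, 68.2% with 50 kb and 27.6% at that score, against 15.5%, 57.0% and 21.2% of all genes. Without flanks the streak and mesoderm list fell below all genes (9.09%), and at that score the neural list lay above them (22.9%). The CTCF core share (21.5%) was 9.39% within 50 bp, 24.4% within 150 bp and 25.8% at that score. The share of pairs reading away stayed within its interval under 2 alternatives chosen after seeing the data. No paired analysis was possible because there was 1 library a side. Counts per site were low, so ratios of single sites are imprecise.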
